A study of Mus musculus with 6 samples.

Results

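The urea cycle and glutaminase genes described here are 9 genes given by name, *Nags*, *Cps1*, *Slc25a15*, *Otc*, *Ass1*, *Asl*, *Arg1*, *Gls2* and *Glud1*, and each matched 1 of the 56305 genes in the table. Their transcripts were measured by bulk RNA-seq in 6 mouse livers, 3 labelled WT and 3 labelled Vps15LKO, with 1 library per mouse. Vps15LKO mice are AlbCre+;Vps15 f/f, so that Cre under the albumin promoter, which is active in hepatocytes, deletes *Vps15*, the regulatory subunit of class 3 PI3K. The cells of the liver that do not use this promoter keep the gene and are part of the same RNA. The WT mice are the controls of this line, and their Cre and floxed alleles are not given in the sources used here. All 6 were males of 5 weeks on standard chow ad libitum, with livers collected at ZT6, which is 6 h after lights on. The comparison asks how the enzymes that make urea, and the mitochondrial steps that feed them with ammonia and glutamate, differ in transcript level in livers without hepatocyte Vps15.

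The urea cycle turns ammonia, which is toxic, into urea. Its first steps take place in hepatocyte mitochondria, where N-acetylglutamate switches on carbamoyl phosphate synthetase, and its later steps in the cytosol, from which ornithine is carried back into the mitochondria. Periportal hepatocytes hold most of the cycle and also liver glutaminase, which releases ammonia from glutamine beside it, whereas a narrow pericentral layer makes glutamine from the ammonia that escapes.

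The libraries held between 16137093 and 18110223 counted reads. The authors had divided each by 1 size factor, 0.742 to 0.801 in the WT and 1.23 to 1.41 in the Vps15LKO libraries, so that the size factors lower the Vps15LKO values of all genes relative to a scaling by total reads. A gene was tested when at least 3 livers held 20 or more normalized counts, and it was called at an adjusted p under 0.05 (limma with Benjamini-Hochberg adjustment over 15430 genes) and a fold of at least 1.2. *Pik3r4*, which encodes Vps15, was at 460 to 573 normalized counts in the WT and 341 to 362 in the Vps15LKO livers. Its CPM, from the recovered reads, averaged 22.7 in the WT and 25.8 in the Vps15LKO livers, the opposite direction. The table gives 1 value for the whole gene, deleted exons included, so *Pik3r4* does not check the labels.

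All 9 genes fell in Vps15LKO liver, and in each of them all 3 Vps15LKO livers lay below all 3 WT livers. Across the tested genes, 33.0% were called lower (5099) and 33.5% higher (5163), a split that was 1712 to 10300 at 1 total of reads and 578 to 13545 with the scaling to hepatocyte genes described below, and 36.8% had all Vps15LKO values below all WT values. Changes are given as log2 fold changes of normalized counts, Vps15LKO over WT, on the scale of log2(count + 1). The median of the 9 genes was −1.99, against −0.02 over all genes tested. The most abundant genes as a class leaned the same way, since of the 3086 tested genes with the highest mean levels 1780 were called lower and 604 higher, with a median of −0.44. The change of 8 of the 9 genes lay between −1.42 and −2.49, and that of *Glud1* was −0.69. The direction for *Glud1*, and under 1 scaling that for *Nags*, depended on how the libraries were scaled to each other, as given with the scalings below. In bulk tissue, fewer hepatocytes and less of these transcripts per hepatocyte cannot be told apart.

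**Figure D1:**
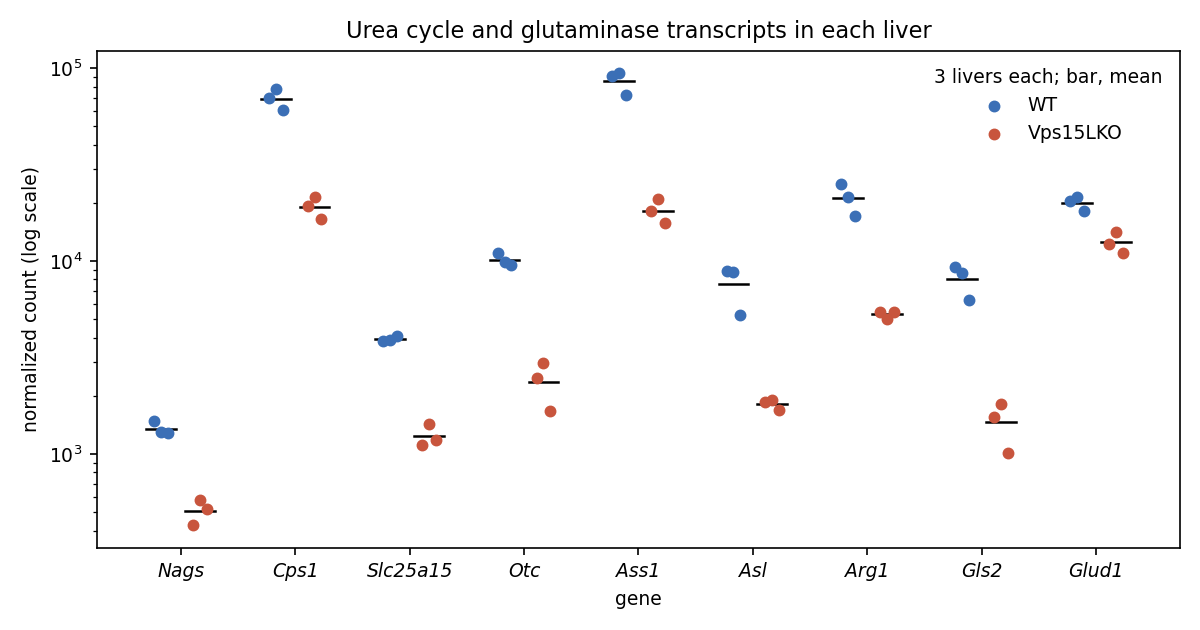
Normalized counts (log scale) of the 9 urea cycle and glutaminase genes in each of 3 WT and 3 Vps15LKO livers, with a bar at each group mean. Every red point lies below every blue point of the same gene at the authors' scaling, and the gap is narrowest for *Glud1*, whose Vps15LKO mean was 62.2% of the WT mean; at 1 total of reads for all libraries, *Glud1* had a log2 fold change of 0.04.

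The mitochondrial entry of the cycle was described first. *Nags* (GRCm38, chromosome 11, 102145513 to 102149477, plus strand) encodes the synthase that makes N-acetylglutamate, the obligate activator of Cps1. The WT livers held 1474, 1298 and 1274 normalized counts of it, and the Vps15LKO livers 426, 576 and 514. The highest Vps15LKO liver stayed well under the lowest WT liver, and *Nags* fell by 1.42 on the log2 scale (standard error 0.13, adjusted p = 2.3e-05). The exons of *Nags* share 443 of 2838 bases with *Gm11586* on the other strand, and whether the counting used strand is not given in the sources used here. *Cps1* (chromosome 1, 67123026 to 67231259, plus strand) encodes the carbamoyl phosphate synthetase of the mitochondrial matrix, which fixes ammonia. Its normalized counts were 69407, 77586 and 60668 in WT and 19265, 21378 and 16562 in Vps15LKO livers. The 3 livers of each group were spread by similar proportions, with coefficients of variation of 12.2% and 12.7%, and the Vps15LKO mean was 27.5% of the WT mean (log2 fold change −1.86, standard error 0.21, adjusted p = 8.5e-05).

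*Slc25a15* (chromosome 8, 22375551 to 22398597, minus strand) encodes the mitochondrial ornithine carrier. The WT livers were close to each other at 3829, 3872 and 4070 normalized counts, and the Vps15LKO livers held 1112, 1423 and 1175. With the tightest WT values of the 9 genes, a coefficient of variation of 3.27%, it also had the smallest adjusted p of the 9, 5.7e-06 by limma, and its log2 fold change was −1.67 with a standard error of 0.11. *Otc* (chromosome X, 10252305 to 10321024, plus strand) encodes ornithine transcarbamylase, which joins ornithine and carbamoyl phosphate to citrulline. The WT livers held 10975, 9909 and 9563 normalized counts and the Vps15LKO livers 2460, 2955 and 1671. Here the Vps15LKO livers were the more spread group, replicate 3 being the lowest, and *Otc* fell by 2.14 on the log2 scale (standard error 0.19, adjusted p = 2.7e-05).

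All 3 cytosolic enzymes of the cycle fell. *Ass1* (chromosome 2, 31470207 to 31520672, plus strand) encodes argininosuccinate synthetase, which brings in the second nitrogen from aspartate. It had the most reads of the 9 genes in each WT library, whereas *Cps1* had the most in each Vps15LKO library. Its normalized counts went from 90859, 93646 and 72316 in WT to 18014, 20843 and 15663 in Vps15LKO livers. The Vps15LKO mean was 21.2% of the WT mean (log2 fold change −2.24, standard error 0.22, adjusted p = 4.3e-05). *Asl* (chromosome 5, 130011258 to 130029247, minus strand) encodes argininosuccinate lyase, which releases arginine and fumarate. WT replicate 3, at 5236 normalized counts, stood below the other WT livers at 8897 and 8725, but still well above the Vps15LKO livers at 1847, 1895 and 1679 (log2 fold change −2.04, standard error 0.20, adjusted p = 3.7e-05). *Arg1* (chromosome 10, 24915221 to 24927484, minus strand) encodes the liver arginase, which splits arginine into urea and ornithine. WT livers held 25144, 21457 and 16973 normalized counts, and Vps15LKO livers 5404, 5022 and 5402. The Vps15LKO livers were nearly level, the WT livers were not, and *Arg1* fell by 1.99 on the log2 scale (standard error 0.16, adjusted p = 1.5e-05).

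The 2 of the 9 genes that handle ammonia and glutamate beside the cycle are *Gls2* and *Glud1*. *Gls2* (chromosome 10, 128194457 to 128210004, plus strand) encodes the liver-type glutaminase, and its fall was the largest of the 9 genes. Its normalized counts went from 9336, 8684 and 6259 in WT to 1555, 1819 and 1015 in Vps15LKO livers. The Vps15LKO mean was 18.1% of the WT mean, with WT replicate 3 and Vps15LKO replicate 3 the lowest of their groups (log2 fold change −2.49, standard error 0.23, adjusted p = 2.8e-05). Its exons share 97 of 3474 bases with *Spryd4* on the other strand. *Glud1* (chromosome 14, 34310727 to 34345265, plus strand) encodes glutamate dehydrogenase, which releases ammonia from glutamate or takes it up. The WT livers were at 20471, 21358 and 18179 normalized counts, and the Vps15LKO livers at 12187, 14134 and 11004. The groups did not overlap, but the gap was the smallest of the 9 genes (log2 fold change −0.69, standard error 0.16, adjusted p = 0.0042). Among all tested genes, 20.3% had a lower log2 fold change than *Glud1*, against 2.16% for *Gls2* and 7.33% for *Nags*, which bounded the other 8 genes.

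The scaling between libraries set the size of these changes. With TMM factors the 9 log2 fold changes had a median of −1.94, and with upper-quartile factors of −1.86, and all 9 were called lower under both. When all libraries were set to 1 total of reads, the median of all genes moved to 0.70, 8 of the 9 genes were still called lower with a median of −1.26, and *Glud1* was at 0.04 and not called (adjusted p = 0.78). Quantile normalization, which gives each library the same distribution, also left 8 lower, with *Glud1* called higher at 0.46. Scaling each library to its reads on 20 genes for secreted hepatocyte proteins, such as albumin, moved the median of all genes to 1.51 and that of the 9 genes to −0.45. Under it 6 of the 9 genes were called lower, from *Gls2* at −0.95 to *Cps1* at −0.32, *Slc25a15* at −0.13 and *Nags* at 0.12 were not called, and *Glud1* was called higher at 0.85. TMM, upper-quartile, total-read and hepatocyte-gene factors move all genes of a library alike, so that the position of the 9 genes relative to other genes is nearly the same under each by construction, with a distance of −1.97 between their median and that of all genes at the authors' scaling. After quantile normalization, which does not move genes alike, 8 of the 9 lay below the median of all genes, at a distance of −1.13.

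**Figure D2:**
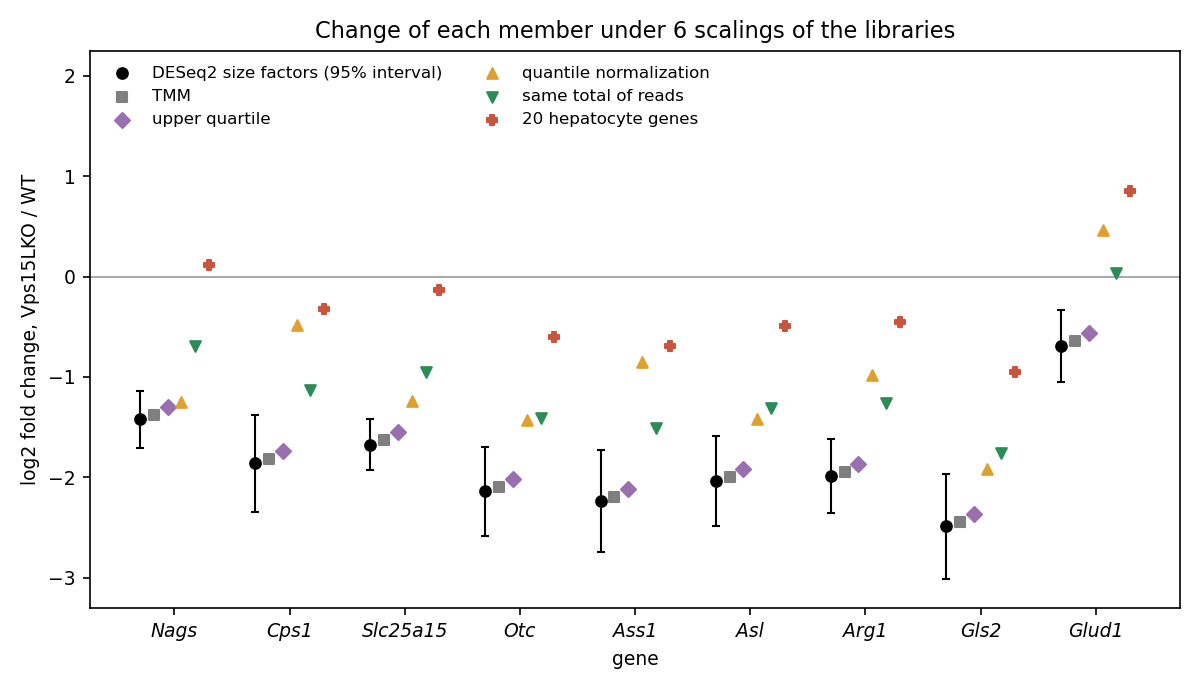
Log2 fold change (Vps15LKO over WT) of each of the 9 genes under 6 ways of scaling the libraries to each other; black circles are the authors' DESeq2 size factors with 95% intervals from limma, and the other symbols are the alternatives. *Glud1* turned from −0.69 to 0.46, 0.04 and 0.85 under quantile normalization, 1 total of reads and scaling to 20 hepatocyte genes, *Nags* reached 0.12 under the last, and the other 7 genes stayed below 0 under all 6.

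Shares of reads need no size factor. The 9 genes together took 1.02%, 1.09% and 0.894% of all counted reads in WT livers but only 0.455%, 0.478% and 0.428% in Vps15LKO livers. The groups did not overlap, and the mean share was 1.001% ± 0.0990 (SD, n = 3) against 0.454% ± 0.0247 (SD, n = 3), with an exact two-sided permutation p of 0.1, the smallest that 3 against 3 allows. *Alb*, which encodes albumin, took a mean of 9.63% of reads in the WT and 5.74% in the Vps15LKO livers, a ratio of 0.596 against 0.453 for the 9 genes. Set against the reads on the 20 secreted hepatocyte genes, the reads on the 9 genes came to between 4.82% and 6.03% in the WT and between 3.44% and 3.87% in the Vps15LKO livers. The mean ratio was thus 5.45% against 3.64%, with no overlap (exact permutation p = 0.1).

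The make-up of these reads was read within each liver. *Cps1* made up 30.5% of the reads on the 9 genes in the WT and 30.6% in the Vps15LKO livers. *Ass1* went from 37.7% to 29.1%, *Gls2* from 3.54% to 2.32%, and *Glud1* from between 8.52% and 9.34% to between 19.6% and 20.2%. In every Vps15LKO liver *Glud1* was the third largest of the 9 by reads, ahead of *Arg1*, which had a mean of 8.58%, and in the WT livers it was behind *Arg1* in replicate 1, level with it in replicate 2 (8.66% and 8.70%) and ahead in replicate 3 (9.34% and 8.72%). The shares of *Otc*, *Asl*, *Arg1* and *Slc25a15* overlapped between the groups, and that of *Nags*, 0.598% against 0.816%, did not.

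**Figure D3:**
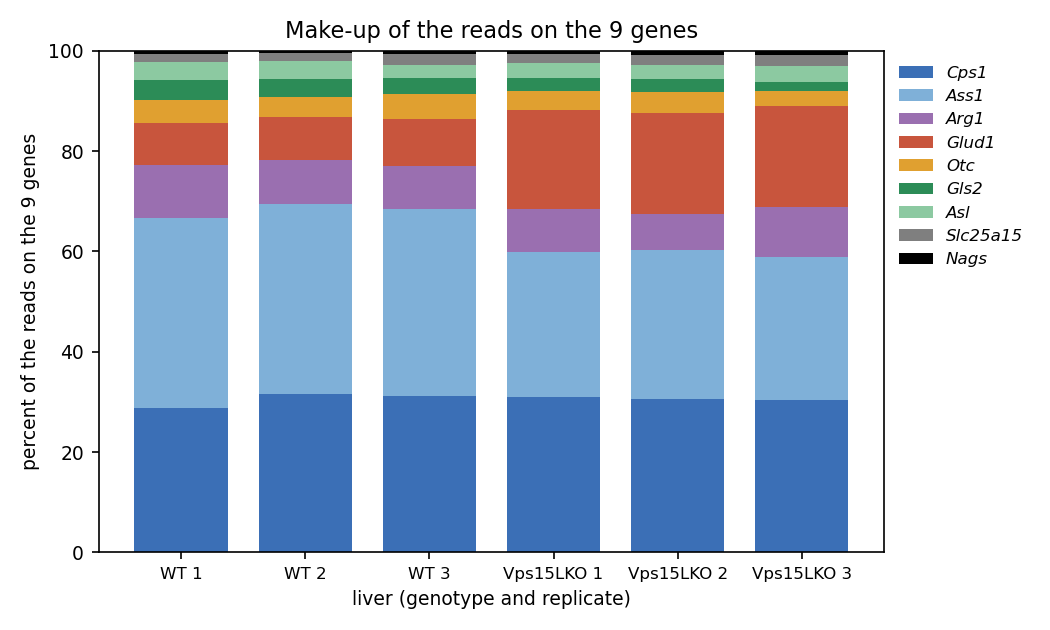
Share of the reads on the 9 genes that fell on each of them, in percent, in each WT and Vps15LKO liver; each bar adds up to 100%. The *Glud1* segment was between 8.52% and 9.34% in the WT livers and between 19.6% and 20.2% in the Vps15LKO livers, and the *Cps1* segment was between 28.9% and 31.5% in all 6.

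Ratios to *Cps1* in the same library show the same quantities without any scaling between libraries. The log2 ratio of *Glud1* to *Cps1* differed by 1.17 (standard error 0.04) between Vps15LKO and WT livers. Per exonic length, *Glud1* stood at 36.3% to 39.5% of *Cps1* in the WT livers and at 83.5% to 87.7% in the Vps15LKO livers. The log2 ratio of *Gls2* to *Cps1* differed by −0.63 (standard error 0.19), that of *Ass1* differed by −0.38 (standard error 0.05), and that of *Nags* by 0.44 (standard error 0.18, 95% interval −0.063 to 0.94). None of these 4 ratios overlapped between groups, each with an exact permutation p of 0.1 and 0.155 after Benjamini-Hochberg adjustment over 17 ratios. The ratios of *Otc* (−0.28, 95% interval −0.75 to 0.19), *Asl* (−0.18, −0.67 to 0.32), *Arg1* (−0.13, −0.65 to 0.39) and *Slc25a15* (0.19, −0.24 to 0.61) overlapped between the groups, so that these intervals bound how far they could have moved apart from *Cps1*.

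Levels between genes were compared as TPM, the reads of each gene per exonic length, scaled to 1 total in each library and computed here. In the WT livers the order was *Ass1* (3521), *Cps1* (1239), *Arg1* (941), *Glud1* (472), *Otc* (238), *Gls2* (231), *Asl* (156), *Slc25a15* (69.4) and *Nags* (47.2). Only *Otc* and *Gls2* overlapped as neighbours in this order. In the Vps15LKO livers it was *Ass1* (1268), *Cps1* (579), *Glud1* (498), *Arg1* (402), *Otc* (93.3), *Gls2* (70.5), *Asl* (63.2), *Slc25a15* (37.1) and *Nags* (30.1), with *Gls2* overlapping both of its neighbours. *Arg1* and *Glud1* had changed places, and the other genes kept theirs. Among all genes, *Ass1* ranked between 30 and 41 in the WT livers and between 66 and 78 in the Vps15LKO livers.

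The arginase that liver hardly uses went the other way. *Arg2* (chromosome 12, 79130777 to 79156301, plus strand), the mitochondrial arginase, had 10.6, 7.5 and 8.1 normalized counts in WT livers, which is 6 to 8 reads each, but 311.6, 206.6 and 319.7 in Vps15LKO livers. A wide gap separated the groups, with a log2 fold change of 4.83 and a standard error of 0.23. Because the WT livers were under 20 normalized counts, *Arg2* passed the filter only through the group where it was high, so that its call was fixed in part by that choice. Its exons share 285 of 1428 bases with *Vti1b* on the other strand. It nevertheless stayed the minor form. Per exonic length, *Arg2* was at 0.0545% to 0.0743% of *Arg1* in the WT and at 6.42% to 9.23% in the Vps15LKO livers.

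Other partners of the cycle were set against its genes in the same way. *Cad*, the cytosolic enzyme that makes carbamoyl phosphate for pyrimidines, had a log2 fold change of 0.55, against −1.86 for *Cps1*. The log2 ratio of *Cad* to *Cps1* differed by 2.41 (standard error 0.31). That of *Odc1*, which takes ornithine into polyamines, to *Otc* differed by 1.87 (standard error 0.35), while *Odc1* itself had a log2 fold change of −0.27, was not called, and was higher at 1 total of reads (0.46) and with the scaling to hepatocyte genes (1.27). The ratio of *Car5b* to *Car5a*, the mitochondrial carbonic anhydrases, differed by 1.16 (standard error 0.26), and that of the aspartate-glutamate carriers *Slc25a12* to *Slc25a13* by 1.34 (standard error 0.22). *Car5b* and *Slc25a12* themselves were called lower, at −1.28 and −0.41, and were higher with the scaling to hepatocyte genes, at 0.23 and 1.12, *Slc25a12* also at 1 total of reads (0.31). These 4 ratios of *Cad*, *Odc1*, *Car5b* and *Slc25a12* did not overlap between the groups (exact permutation p = 0.1, adjusted 0.155). The ratio of *Glul*, glutamine synthetase, to *Gls2* differed by 0.09 (95% interval −0.57 to 0.75) and that of *Oat*, ornithine aminotransferase, to *Otc* by −0.23 (−1.25 to 0.80). Both overlapped. *Slc25a2*, a second ornithine carrier, had 0 or 1 read in each liver, so its ratio to *Slc25a15* is not read.

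**Figure D4:**
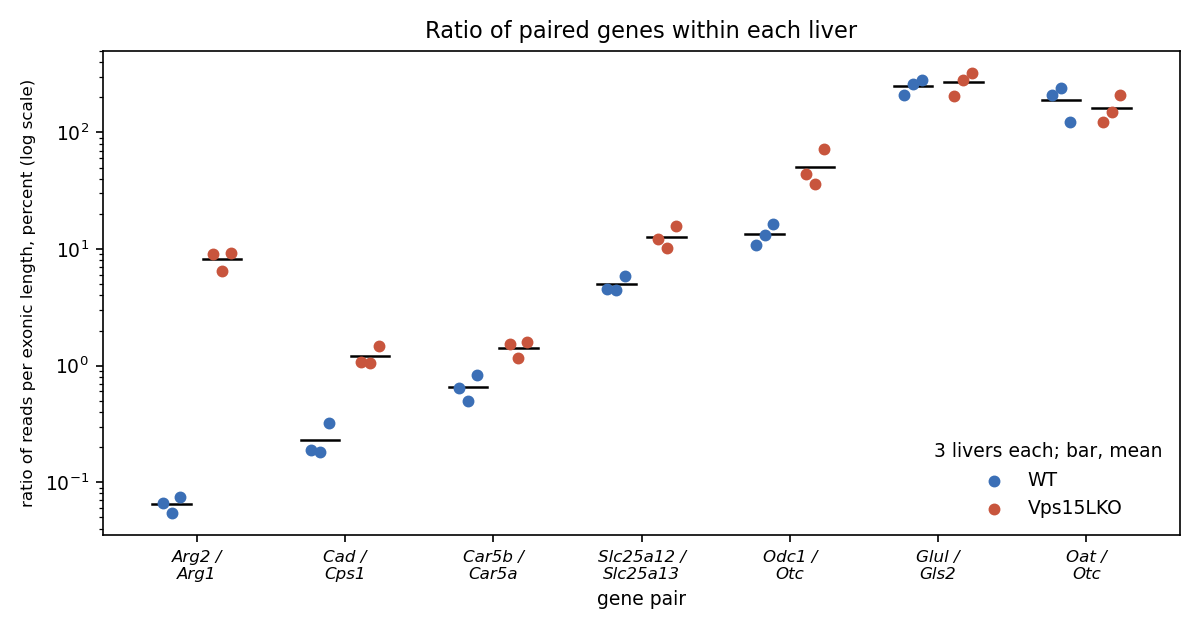
Ratio of paired genes within each liver, as reads per exonic length in percent (log scale), for WT and Vps15LKO livers with a bar at each group mean. *Arg2* over *Arg1* shows the widest gap, from at most 0.0743% to at least 6.42%, whereas *Glul* over *Gls2* and *Oat* over *Otc* overlap.

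The wider nitrogen pathway was read from 5 lists of 73 further genes, of which 64 were tested. Of these, 42 fell, 15 rose and 7 were not called, against 33.0% lower and 33.5% higher over all tested genes. At 1 total of reads 29 were called lower and 24 higher, against 1712 and 10300 of all 15430 genes tested. In the supply of ammonia, bicarbonate and aspartate, 13 of 14 tested genes fell, with a median of −1.28 that turned to 0.26 with the scaling to hepatocyte genes. The lowest were *Car5a*, which provides bicarbonate to Cps1 (log2 fold change −2.44, standard error 0.19), and *Glul* (−2.40, standard error 0.20), which fell from 18733, 21847 and 16973 to 3042, 4941 and 3158 normalized counts. *Slc25a13*, the liver form of the carrier that exports aspartate for Ass1, fell from 4454, 4713 and 3621 to 1222, 1570.5 and 1040 normalized counts (log2 fold change −1.75, standard error 0.16), a call lost only under the scaling to hepatocyte genes. The smallest fall was that of the alanine aminotransferase *Gpt2* (−0.36), which was not called with upper-quartile factors (−0.24) and was higher under quantile normalization (0.43), 1 total of reads (0.37) and the scaling to hepatocyte genes (1.18).

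The branches that use arginine and ornithine split, with 6 of 16 tested genes lower and 7 higher and a median of 0.09, against 33.0% lower and 33.5% higher over all tested genes. The median was −0.05 after quantile normalization. At 1 total of reads 6 were lower and 10 higher (median 0.81), and with the scaling to hepatocyte genes 2 were lower and 10 higher (median 1.62). *Prodh* and *Oat*, which act in proline breakdown and between ornithine and glutamate semialdehyde, fell by 2.91 and 2.36 on the log2 scale. Of the genes called higher, *Arg2* and *Pycr1* passed the filter only through the Vps15LKO livers. *Pycr1*, which makes proline, had 1 to 5 reads in the WT libraries and 43 to 78 in the Vps15LKO libraries. Among transporters, 6 of 12 fell and 4 rose, against the same 33.0% lower and 33.5% higher over all tested genes. Their median was −0.49. It was 0.23 at 1 total of reads (5 lower, 6 higher) and 1.04 with the scaling to hepatocyte genes (3 lower, 7 higher). *Slc1a2*, a glutamate carrier of pericentral hepatocytes (−4.18), and *Slc38a4*, a carrier of neutral amino acids (−2.13), were lowest, and *Slc1a4* (4.13), which carries serine and other neutral amino acids, and *Slc7a1* (3.46), which carries arginine and ornithine, were highest, *Slc7a1* being another gene that passed the filter only through the Vps15LKO livers. Of 10 further enzymes of amino acid nitrogen, most of which release ammonia, 7 fell and 2 rose, with a median of −1.23 that was 0.31 with the scaling to hepatocyte genes. They ran from *Hal*, histidine ammonia-lyase (−3.36), and *Sds*, serine dehydratase (−2.52), to *Asrgl1*, an asparaginase (0.39), and *Asns*, which makes asparagine (1.30) and whose WT values ran from 58.7 to 165.8 normalized counts. The call of *Asrgl1* was lost under quantile normalization.

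Of 12 regulators known to act on urea cycle genes, 10 fell and 1 rose, against 33.0% lower and 33.5% higher over all tested genes. Their median was −0.87. At 1 total of reads 4 were lower and 2 higher, and with the scaling to hepatocyte genes 2 were lower and 8 higher, with a median of 0.67. *Klf15*, a regulator of amino acid breakdown, fell by 2.37 on the log2 scale, and *Cebpa*, which encodes a hepatocyte factor needed for *Cps1* expression, by 1.94, from 16720, 17796 and 16769 to 4311, 5765 and 3521 normalized counts. *Trp53* rose by 0.99. *Ppargc1a* (−0.69, adjusted p = 0.039) overlapped between the groups, was not called with TMM or upper-quartile factors, and was positive at 1 total of reads (0.03) and with the scaling to hepatocyte genes (0.84). Scaled to hepatocyte genes, 12 of the 64 pathway genes were called lower and 35 higher.

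**Figure D5:**
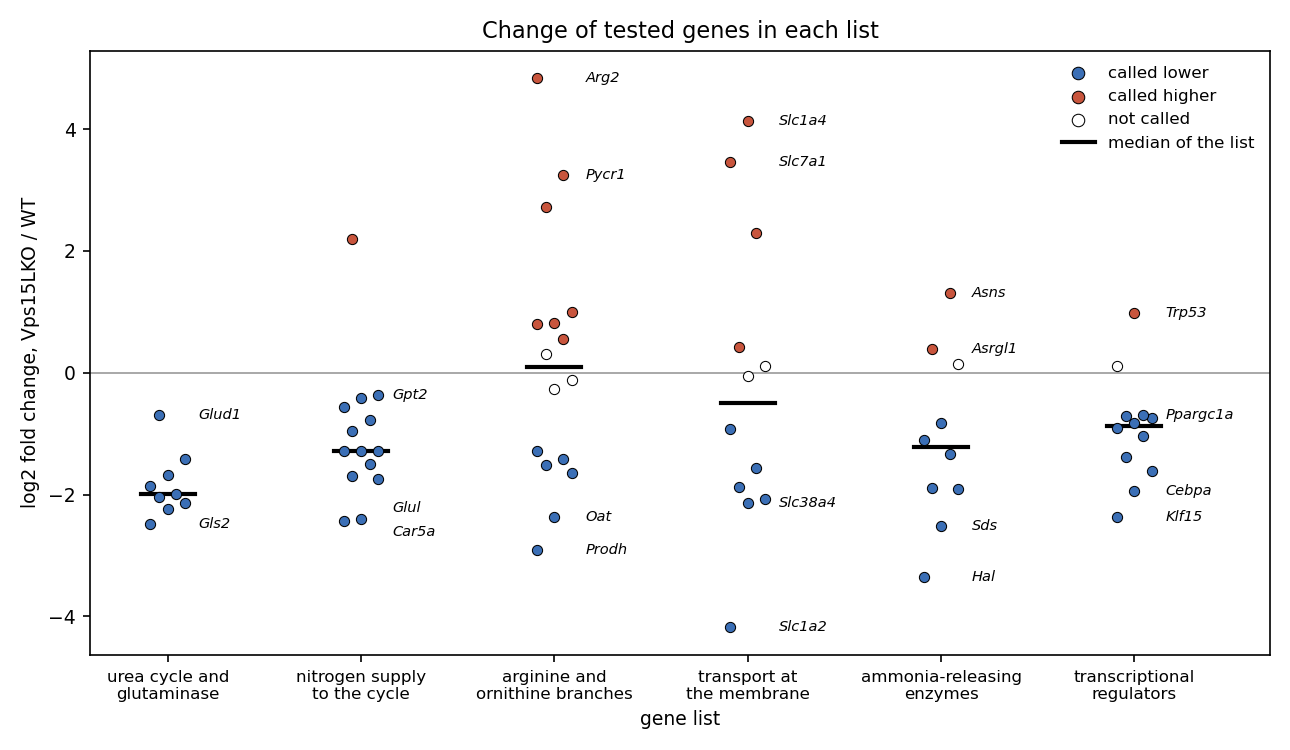
Log2 fold change (Vps15LKO over WT) at the authors' scaling of the tested genes in 6 lists, the 9 urea cycle and glutaminase genes and 5 lists of nitrogen handling; each point is 1 gene, coloured by its call, and bars are list medians. All 9 points of the first list are below 0 at this scaling, with a median of −1.99, while the list of arginine and ornithine branches spans −2.91 to 4.83; *Glud1*, *Gpt2*, *Slc25a12*, *Odc1* and *Ppargc1a* were among the genes that turned positive at 1 total of reads.

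Promoter sequences were available here for 5 of the 9 genes, *Otc*, *Ass1*, *Nags*, *Slc25a15* and *Glud1*, in 6 windows from RefSeq (GRCm38.p6) of 250 bases before to 50 after a start site. The E-box CACGTG, the motif that Bmal1 and Clock bind, was searched on both strands and was found in the windows of 2 genes, *Ass1* and *Slc25a15*, and in that of *Slc25a13*, but not in those of *Glul*, *Car5a* and *Cad*, which were searched beside them. Of 32851 windows in the table, 7.15% hold it. These are shown because Vps15 was studied as a coactivator of Bmal1, with the E-box in capitals, 12 bases on either side, 5′ to 3′ on the strand of the gene.
Ass1, chr2:31470222-31470251, plus strand, E-box from 36 bases before the RefSeq start: cgcgcccgtcccCACGTGtcccaggttcct
Slc25a15, chr8:22398337-22398366, minus strand, E-box from 77 bases before the start: cgccctgccgcaCACGTGccgcggctccgg
Slc25a13, chr6:6217281-6217310, minus strand, E-box from 125 bases before the start: cacagtctgagtCACGTGtcctggcccctc
The nuclear receptor half-site AGGTCA, found in 16.3% of all windows, was in 1 of the 6, that of *Nags*, on the opposite strand and 178 bases before the start. It is in capitals in the 250 bases up to the start, shown because the same start is annotated in RefSeq and GENCODE.
Nags, chr11:102145263-102145512, plus strand: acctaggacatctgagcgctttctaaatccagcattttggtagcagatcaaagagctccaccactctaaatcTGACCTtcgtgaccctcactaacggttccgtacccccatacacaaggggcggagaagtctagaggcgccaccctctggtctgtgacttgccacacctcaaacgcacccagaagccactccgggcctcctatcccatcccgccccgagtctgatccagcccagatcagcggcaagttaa
The half-site CGTCA of the cAMP response element (20.8% of all windows) was, of the 6 windows, also in that of *Nags* only, and the C/EBP-type letters TTNNGNAAT (11.5% of all windows) were in none of the 6. *Slc25a15* has 2 of the 6 windows, and its E-box is in 1 of them, whose start lies inside the gene's GENCODE span. The E-box shown for *Ass1* likewise lies inside the GENCODE span of that gene, which begins at 31470207. A match is a run of letters and no measured binding.

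The genes whose pattern over the 6 livers was most like the mean pattern of the 9 were found among 11239 other genes, those averaging 100 normalized counts or more, by the root mean square difference of centred log2 values. The nearest 5 were *Fmc1* (0.0336), *Gm15756* (0.0374), *Cyp2d26* (0.0411), *Cbs* (0.0491) and *AC165962.4* (0.0536), with log2 fold changes between −1.80 and −1.89. *Cbs* encodes cystathionine beta-synthase. *Gm15756* shares 499 of its 670 exonic bases with *Aldh1l1*, and *AC165962.4* 214 of 2107 with *Glo1*, both on the other strand. Of the 9 genes themselves, *Cps1* was nearest to their mean (0.0635) and *Glud1* farthest (0.576).

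The position of the genes along the lobule and the mix of cells were measured beside these results. Over all tested genes, 33.0% were called lower and 33.5% higher at the authors' scaling. Of 9 tested periportal genes, 8 fell, with a median of −2.52 and *Cyp2f2* lowest (−3.64), against 6 lower and 3 higher with a median of −0.98 with the scaling to hepatocyte genes. The smallest called falls there were those of *Sfxn1* and *Apof*, −1.02 each, which were −0.29 each and not called at 1 total of reads and 0.52 each with the scaling to hepatocyte genes. The call of *Apof* was also lost under quantile normalization (−0.14). Of 11 pericentral genes 9 fell and 1, *Axin2*, rose (0.70), with a median of −1.49 that was 0.04 with the scaling to hepatocyte genes. *Slc1a2* was the lowest of them, and *Cyp1a2* had the smallest called fall (−0.57), which was positive under quantile normalization (0.59), at 1 total of reads (0.16) and with the scaling to hepatocyte genes (0.97). Of 20 genes for secreted hepatocyte proteins, 15 fell and none rose (median −1.49), against 8 lower and 2 higher after quantile normalization (median −0.24) and 14 lower and 2 higher at 1 total of reads (median −0.76). *Alb* was the highest or the second highest gene by TPM in every liver, which fits the labelled tissue. Most markers of other cells went in the direction opposite to the 9 genes at the authors' scaling. The summed level of 15 macrophage genes went from 10927 to 12666 normalized counts in the WT to 42933 to 46177 in the Vps15LKO livers. Of these 15 genes, 12 were called higher and 1 lower, and the lowest log2 fold change was −3.04. For stellate cells and fibroblasts the sum went from 8007 to 8510 to 34387 to 40355 with 13 of 13 higher, for cholangiocytes from 708 to 845 to 12499 to 23796 with 9 of 9 tested higher, and for neutrophils and lymphocytes from 141 to 160 to 511 to 584 with 8 of 10 tested higher. Some of these markers, among them *Timp1*, *Cldn4* and most of the neutrophil and lymphocyte genes called, passed the filter only through the Vps15LKO livers, so the summed levels, which take every gene listed, are the measure given for them. Endothelial genes split, with 6 lower and 4 higher, and 1 lower and 6 higher at 1 total of reads. No gene of these lists was at 0 in all 6 libraries. Their part in the fall of the 9 genes was not tested.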

How the data were processed

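RNA-seq libraries of 6 mouse livers, 3 WT and 3 Vps15LKO, were compared, grouped by their labels. Poly(A) RNA was selected, per the labels. Per the study's methods, the authors cleaned the reads (SOAPnuke), aligned to GRCm38 (HISAT2), counted by gene (featureCounts) and scaled the libraries (DESeq2). Versions and the strand setting of the counting are not given in the sources used here. The deposited values are a signal, a gene's count over the size factor of its library, for 56305 genes, of which 55227 took a symbol from GENCODE M21. In each library 100% of values were a whole number of reads at that library's step (tolerance 0.01), so whole reads were recovered. They summed to 16137093 to 18110223 per library, and the mitochondrially encoded genes were listed at 0. Reads without molecular identifiers are not independent molecules, and the spread between livers includes counting error.

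Genes that reached 20 normalized counts in 3 or more livers (15430) were tested by limma 3.58.1 (trend) on log2(normalized count + 1), with Benjamini-Hochberg adjustment over all of them. The fold on this scale understates the change of low genes. The test was checked on simulated data with 197 changed genes out of 14268. Of the 197, 98% were recovered, and there were 9 false calls. Its behaviour with a share of changed genes as large as that called in these livers was not tested. On the recovered reads, edgeR 4.0.16 called 4822 genes lower and 5383 higher, and DESeq2 1.42.0 and voom were further alternatives, with other pseudocounts (0.1, 10), filters, scalings, fold thresholds and each liver left out. Ratios and shares used exact permutation tests. The genes named are the 9, the genes of the ratios, the 2 lowest and 2 highest called genes of each list, 5 genes nearest in pattern, and *Pik3r4* and *Alb*. The values of 1 gene of the lists, and of its ratio, are not reported here. The 9 genes and all lists were chosen with earlier results of these data known. Each library is 1 mouse, and no source ties replicate numbers to a litter. The limma p-values set each difference against a variance between these mice that is moderated over all tested genes. The exact permutation p cannot fall under 0.1 with 3 against 3.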

Additional observations from a re-analysis of the deposited data

How the results depend on the processing

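All 9 genes were called lower when any 1 liver was left out, with pseudocounts of 0.1 and 10, with both other filters, without the trend, with edgeR, DESeq2 and voom, and with fold thresholds of none and 1.5. The scalings were the exception. At 1 total of reads, 1712 genes were called lower and 10300 higher, 24 pathway genes were higher, and *Glud1* was at 0.037. With the scaling to hepatocyte genes, 578 genes were lower and 13545 higher, pathway genes numbered 12 lower and 35 higher, 1 of the 9 genes was higher (*Glud1*, 0.85), and *Nags* was at 0.12. Quantile normalization also put 1 of the 9 higher (*Glud1*, 0.46). The scaled quantities differ by construction, and no measurement here says which scaling is right. Leaving out 1 liver gave 4450 to 5070 genes lower and 4648 to 5152 higher, and turned the sign of the *Glul* to *Gls2* log2 ratio (−0.054 to 0.28).

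With the replicate number as a block, calls numbered 4983 lower and 5065 higher, with 9 of the 9 genes lower. The deviations of same-numbered livers from their group means were not correlated over genes (correlations −0.01, −0.01 and 0.05). With 3 livers per group this cannot exclude a shared litter or batch, which was not tested. Depth does not limit the 9 genes, the least of which, *Nags*, had 558 reads or more per library, but it limits *Slc25a2* and the WT values of *Arg2* and *Pycr1*.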
